A study of Citrus sinensis with 48 samples.

Results

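The phenylpropanoid and lignin synthesis genes described here are the 176 genes, of 30136 in the deposited table, whose product description names an enzyme of the pathway from phenylalanine to the lignin building blocks, or a laccase or dirigent protein. They were found by a word search of those descriptions. By description the set includes 4 phenylalanine ammonia-lyases (PAL), 2 cinnamate 4-hydroxylases (C4H), 15 4-coumarate-CoA ligase genes (3 named 4CL and 12 named 4CL-like), 24 shikimate O-hydroxycinnamoyltransferases (HCT), 16 caffeoylshikimate esterases (CSE) and 7 caffeoyl-CoA O-methyltransferases (CCoAOMT). It also includes 14 cinnamoyl-CoA reductases (CCR), 4 cinnamyl alcohol dehydrogenases (CAD), 20 laccases, 36 dirigent proteins and 2 acyltransferases whose names contain the word caffeoyl. Leaf RNA was sequenced from Carrizo citrange (Car), a hybrid of Poncirus trifoliata L. Raf. with Citrus sinensis L. Osb., and from Cleopatra mandarin (Cleo), both grown as citrus rootstocks. Each genotype had a control group (CT), 3 single stresses, namely water stress (WS), strong illumination or high light (HL) and heat (HS), and their combinations, which are every pair and WS+HL+HS, with 3 biological replicates in each of the 16 groups. The sources used here do not give plant age, the duration or severity of the stresses, or whether a replicate was 1 plant or a pool. All p-values therefore reflect the spread among these libraries and nothing wider.

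Phenylpropanoid synthesis turns phenylalanine into hydroxycinnamoyl-CoA esters. Hydroxylation and O-methylation of the ring, followed by reduction of the side chain, give the monolignols, which laccases and peroxidases oxidise in the cell wall into lignin, while dirigent proteins steer the coupling of monolignol radicals, chiefly to lignans. In leaves the same early steps also feed flavonoids, coumarins and hydroxycinnamate esters, and lignin is laid down mainly in xylem and in fibres around the veins. The word search follows protein similarity, and many HCT-, CCR- and 4CL-like family members act outside lignin synthesis, so a description does not establish an enzyme's substrate.

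Libraries held 40294831 to 58392998 counts. Reads of both genotypes were assigned to 1 gene set carrying sweet orange names, so a difference between genotypes in how well reads match a gene cannot be told apart from a difference in its level. The deposited columns of 11 libraries carry a mark ("-bis") that the labels do not explain: all 3 HS-Car libraries, CT-Car 1 and 3, HL-Car 1, WS+HL-Car 1, CT-Cleo 3, HL+HS-Cleo 1 and 2, and WS+HL+HS-Cleo 3. In several groups the library whose mark differed from the other two stood apart, also in summed levels of marker genes for leaf cell types. The 23 xylem markers summed to 90.7, 96.6 and 209 normalised CPM (counts scaled to library size) in HL+HS-Cleo 1, 2 and 3, and the 16 epidermis markers to 799, 1660 and 1740 CPM in HL-Car 1, 2 and 3 and to 943, 984 and 500 CPM in CT-Cleo 1, 2 and 3. Among the Car controls, to which every Car stress was compared, the unmarked CT-Car 2 stood highest, at 448 CPM for xylem markers against 303 and 291 in replicates 1 and 3, 1380 against 875 and 758 for epidermis markers, and 30.7 against 13.3 and 10.2 for the 5 guard cell markers. When the model also held the mark, the number of pathway genes called in each of the 28 comparisons stayed within 1.5 times the value given below. The 17 mesophyll markers, genes of leaf photosynthetic cells, were abundant in all groups but shifted with water stress and with heat. They went from a range of 23400 to 31900 CPM under CT to 7350 to 8150 under WS in Car, and from 33300 to 43800 to 5190 to 5420 in Cleo. Under HS they stood at 44700 to 50500 CPM in Car and 43200 to 48700 in Cleo, and of the 16 tested 14 rose and 1 fell in Car (median log2 change 1.05) and 10 rose and 5 fell in Cleo (0.66). Under HL+HS they stood at 39500 to 42700 in Car, with 14 up and 1 down, and at 22300 to 28000 in Cleo, with 3 up and 7 down. The xylem markers fell from 291 to 448 CPM under CT to 126 to 171 under WS and 44.6 to 48.4 under WS+HL+HS in Car, and in Cleo stood at 134 to 194, 119 to 128 and 47.6 to 88.9 CPM, with 4 to 6 of the 23 genes at 0 counts in these Car groups and 3 to 5 in these Cleo groups. In RNA from whole leaves, fewer cells of a type and less RNA per cell cannot be told apart, and the part of these marker shifts in the results below was not tested.

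Of the 176 genes, 142 passed the filter on low counts and 34 did not. Of the 34, 12 had 0 counts in every library and the other 22 reached a mean of at most 0.0421 TPM (a level scaled to gene length and library size). The untested genes included 19 dirigent genes, 4 laccases and 2 HCT. Levels spanned a wide range, with a mean TPM over 48 libraries above 10 for 67 genes and below 1 for 69. In summed mean TPM the CCR genes were highest at 1500, of which cinnamoyl-CoA reductase 2 (LOC102627726) made up 55.8%. The CCoAOMT genes followed at 1200, and HCT stood at 378, C4H at 372, CSE at 330, 4CL at 244, PAL at 187, dirigent genes at 174, 4CL-like genes at 162, CAD at 161 and laccases at 126. Single genes carried several steps: 1 gene, C4H2, gave 99.8% of the C4H signal, and LOC102629456 gave 72.7% of that of 4CL. The laccase-7-like gene LOC102627565 gave 71.9% of the laccase signal over the 48 libraries, but not in controls. Under CT it was near 0, with a mean of 0.254 CPM in Car and 0.295 CPM in Cleo, while the laccases summed to 28.4 and 17.4 TPM.

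Water stress lowered more of these genes than it raised. Throughout, a gene rose or fell when its edgeR quasi-likelihood test gave a Benjamini-Hochberg adjusted p below 0.05 over the 23721 genes tested, and all stresses of a genotype were compared with the same 3 control libraries. In Car under WS, 29 of the 142 pathway genes rose and 69 fell (20.4% and 48.6%), beside 64.9% of all genes called, 29.5% higher and 35.3% lower. The median log2 fold change of the pathway genes was -0.53 and that of all genes -0.08. In Cleo under WS, 39 rose and 60 fell with a median of -0.01, beside 64.7% of all genes called, 31.2% higher and 33.4% lower.

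**Figure D1:**
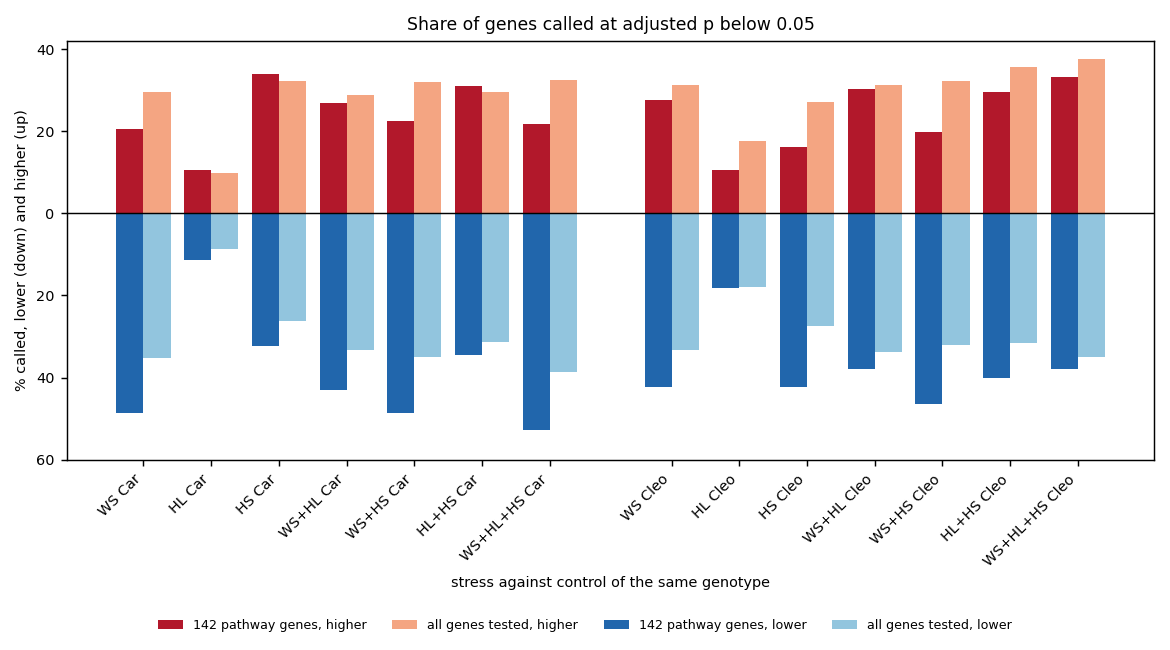
Bars show the percentage of the 142 tested pathway genes (dark) and of all 23721 genes tested (light) that were higher (up, red) or lower (down, blue) than the control of the same genotype at adjusted p below 0.05, for 7 stresses in Car and Cleo. The lower share of pathway genes was highest at 52.8% in Car, under WS+HL+HS, and at 46.5% in Cleo, under WS+HS.

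High light alone changed a share of these genes close to or below that of all genes. In Car 15 rose and 16 fell under HL (21.8% called), beside 18.5% of all genes called (9.69% higher, 8.77% lower). In Cleo 15 rose and 26 fell (28.9% called), beside 35.7% of all genes (17.7% higher, 18% lower). The Car count changed with the libraries used. Without the marked HL-Car replicate 1 more genes were called, 13 up and 28 down, and in the unmarked libraries alone 10 rose and 17 fell. Fitted on the 6 HL and CT libraries of Car only, 6 rose and 5 fell. The all-gene shares given for HL are those of the full fit, not of these refits. Under heat alone 48 rose and 46 fell in Car (58.6% of all genes called, 32.3% higher and 26.3% lower) and 23 rose and 60 fell in Cleo (54.5% of all genes called, 27.1% higher and 27.4% lower). The direct test of the difference between the genotypes' responses to HS called 44.4% of the pathway genes, near the 43.7% of all genes. The medians were -0.11 in Car and -0.40 in Cleo. Because all HS-Car libraries are marked, the Car comparison was repeated against the 2 marked controls, and 46 rose and 45 fell.

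Combinations with water stress kept an excess of lower genes in Car, and WS+HS did so in Cleo too. Under WS+HS 48.6% of the pathway genes fell in Car and 46.5% in Cleo, beside 35% and 32% of all genes. Under WS+HL 38 rose and 61 fell (62.1% of all genes called, 28.8% higher and 33.2% lower). Under WS+HS 32 rose and 69 fell (66.9% of all genes called, 31.9% higher and 35% lower). Under WS+HL+HS 31 rose and 75 fell with a median of -0.73 (71.2% of all genes called, 32.5% higher and 38.7% lower). In Cleo the corresponding counts were 43 and 54 under WS+HL (64.9% of all genes called, 31.2% higher and 33.7% lower) and 28 and 66 under WS+HS (64.3%, 32.2% higher and 32% lower). Under WS+HL+HS they were 47 and 54 with a median of 0.00 (72.5% of all genes called, 37.5% higher and 35.1% lower). Under HL+HS 44 rose and 49 fell in Car (60.9% of all genes called, 29.5% higher and 31.4% lower), and 42 rose and 57 fell in Cleo (67.1%, 35.5% higher and 31.5% lower).

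**Figure D2:**
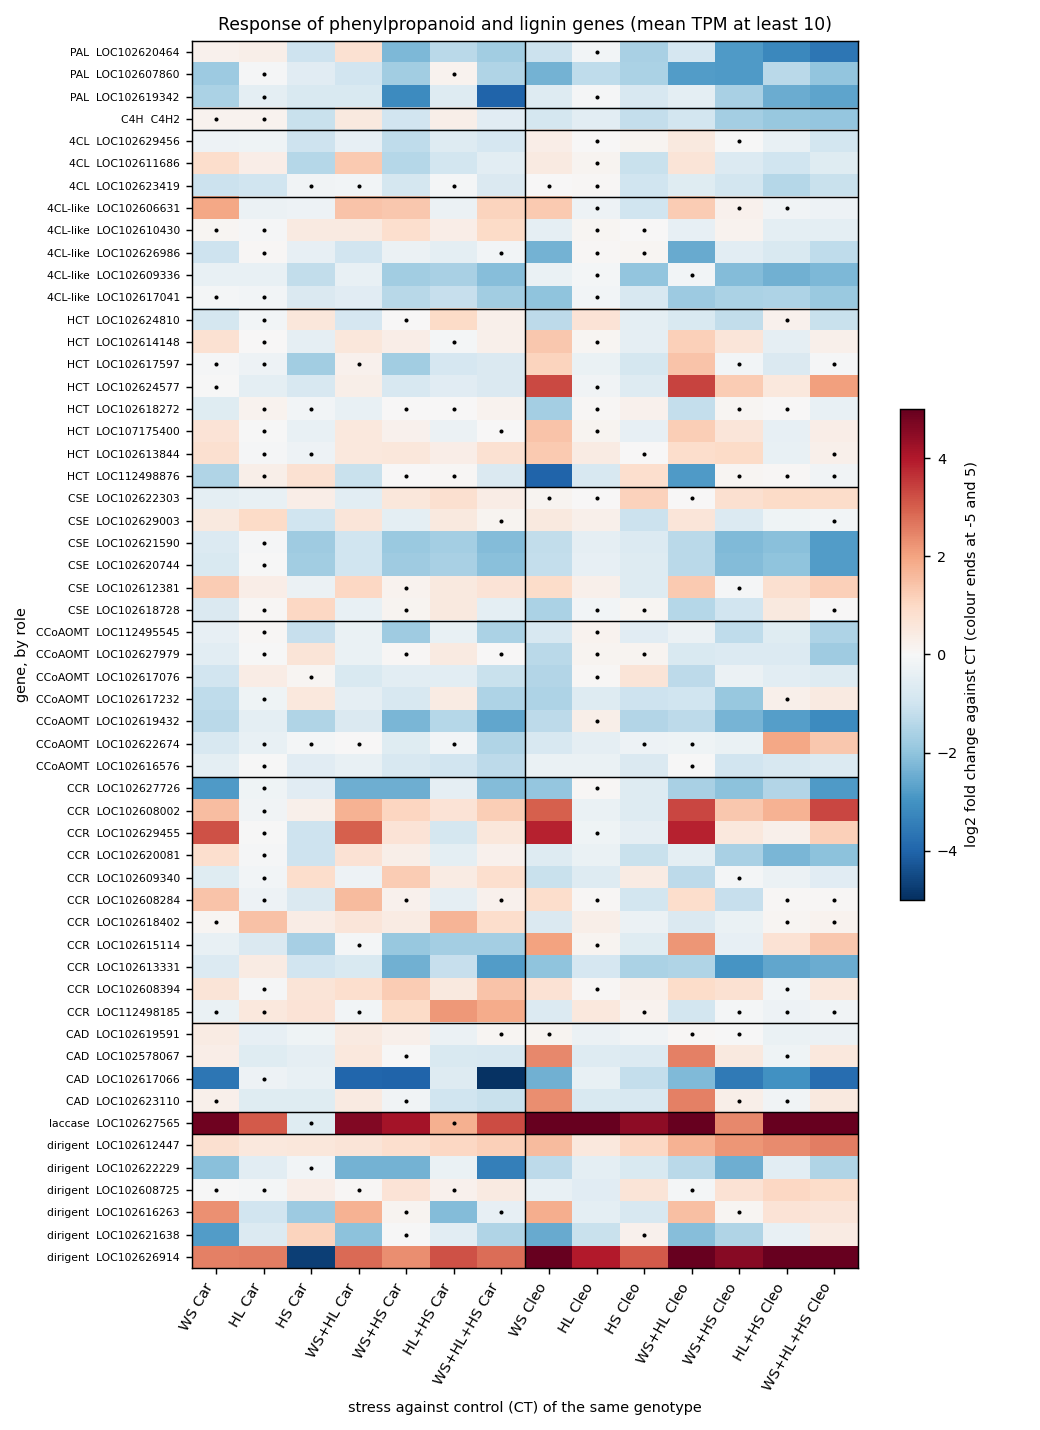
Colour gives the log2 fold change against the control of the same genotype (blue lower, red higher, ending at -5 and 5) for 55 pathway genes with a mean TPM of at least 10, ordered by role, in 7 stresses of Car and Cleo. Dots mark the 151 of 770 cells that did not pass adjusted p below 0.05, and each HL column holds more dots than any other column.

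PAL removes the amino group of phenylalanine and commits it to the pathway. All 4 PAL genes fell in Car under WS+HS and WS+HL+HS and in Cleo under HS, where 35%, 38.7% and 27.4% of all genes were lower. Elsewhere they did not move as 1. Over the 7 stresses LOC102620173, the least abundant and named after its values were seen, rose in 1 and fell in 2 in Car. In Cleo LOC102620173 rose in 3 and fell in 1. The most abundant, LOC102620464, read 602, 551 and 463 CPM in the 3 control libraries of Cleo, 252, 255 and 251 under WS, 173, 174 and 172 under HS and 48.1, 46.9 and 37.4 under WS+HL+HS. Every stressed library in these 3 groups lay below every control, with a log2 fold change of -1.09 ± 0.09 (SE; adjusted p = 1.41e-13) under WS, -1.64 ± 0.09 (adjusted p = 4.3e-18) under HS and -3.61 ± 0.10 (adjusted p = 4.4e-29) under WS+HL+HS.

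In Car the same gene started lower, at 159, 169 and 194 CPM under CT, and took another course. Under WS+HL its libraries read 308, 294 and 283 CPM, all above the controls, and it rose by 0.76 ± 0.09 (adjusted p = 2.59e-09). Heat brought it down, to 79.2, 87.8 and 91.1 CPM under HS and 35.7, 39.0 and 35.7 under WS+HS, a log2 change of -2.24 ± 0.10 (adjusted p = 1.36e-22). Tested directly, the response to WS+HL was 1.60 ± 0.13 lower in log2 in Cleo than in Car, a difference of -1.60 (adjusted p = 3.89e-13).

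A second PAL gene, LOC102607860, fell under WS in both genotypes. It read 66.7, 85.6 and 68.1 CPM in the Car controls and 22.9, 20.4 and 18.9 under WS (-1.83 ± 0.14, adjusted p = 1.2e-14). In Cleo it read 241, 233 and 228 CPM under CT and 37.7, 51.3 and 48.4 under WS (-2.35 ± 0.14, adjusted p = 3.44e-18). HL separated the genotypes: the Cleo libraries dropped to a mean of 97.8 ± 9.5 CPM (SD, n = 3), all below the controls (-1.26 ± 0.13, adjusted p = 5e-10), whereas the Car libraries at 51.9, 75.9 and 87.0 overlapped their controls (-0.04 ± 0.13, adjusted p = 0.918), and the difference of the responses was -1.22 ± 0.19 (adjusted p = 5.73e-06). Another, LOC102619342, named after its values were seen, had its lowest level in Car under WS+HL+HS, at 5.51, 7.14 and 6.88 CPM against 95.0, 129 and 84.7 under CT (-3.99 ± 0.23, adjusted p = 1.17e-17). Summed over the 4 genes, the PAL level was 251 TPM in Car under CT and 48.7 under WS+HS, and 507 TPM in Cleo under CT and 70.5 under WS+HL+HS.

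C4H, the cytochrome P450 that hydroxylates cinnamate, was represented almost wholly by C4H2. Its Cleo controls read 809, 792 and 719 CPM, and all 7 Cleo stresses lay below them without overlap. The fall was smallest under HL (572, 530 and 529 CPM, -0.51 ± 0.10, adjusted p = 5.57e-05) and was -1.94 ± 0.10 (adjusted p = 3.24e-20) under WS+HL+HS, with libraries at 232, 207 and 167 CPM. The HL+HS libraries of Cleo read 170, 183 and 272 CPM, the highest being the unmarked replicate 3, in which the xylem markers also stood highest. In Car, heat was the stress with the lowest libraries, at 200, 200 and 204 CPM against 421, 419 and 482 under CT (-1.13 ± 0.10, adjusted p = 8.58e-13).

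Under HL+HS the genotypes parted. The Car libraries of C4H2 read 525, 571 and 526 CPM, all above the controls (0.30 ± 0.10, adjusted p = 0.0086), but on the deposited TPM scale they overlapped them, at 452, 479 and 448 TPM against 453, 477 and 496. On the count scale the departure from the sum of the HL and HS responses in Car was 1.24 ± 0.14 (adjusted p = 4.03e-09). The same departure in Cleo was -0.17 ± 0.14 (adjusted p = 0.315), and the response to HL+HS differed between genotypes by -2.19 ± 0.14 (adjusted p = 1.82e-16). The other gene, C4H1, was near 0 in 14 of the 16 groups, with a mean of at most 0.0534 CPM. It appeared in Cleo under HL+HS at 6.44, 6.87 and 9.32 CPM and under WS+HL+HS at 8.81, 5.36 and 5.41 CPM, and no fold is given because the Cleo controls held 2 counts in all.

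4CL activates hydroxycinnamates with coenzyme A. The main gene, LOC102629456, fell in all 7 stresses in Car, most under WS+HS (-1.27 ± 0.05, adjusted p = 3.99e-24), while in Cleo it rose in 3 and fell in 2, and the genotypes differed under heat. It read 318, 312 and 339 CPM in the Car controls and 148, 163 and 167 under HS (-1.02 ± 0.05, adjusted p = 1.31e-20). In Cleo it read 274, 276 and 253 CPM under CT and 300, 283 and 300 under HS, just above the controls (0.14 ± 0.05, adjusted p = 0.0167), and the difference between genotypes was 1.16 ± 0.07 (adjusted p = 5.05e-17). Under WS it fell by 0.27 ± 0.05 in Car (a log2 change of -0.27, adjusted p = 9.07e-06) and rose by 0.34 ± 0.05 in Cleo (adjusted p = 1.01e-07). It was lower in both under WS+HL+HS, at -0.84 ± 0.05 (adjusted p = 1.77e-18) in Car and -0.93 ± 0.05 (adjusted p = 6.12e-20) in Cleo.

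Another 4CL gene, LOC102611686, named after its values were seen, rose under WS and fell under HS. It read 55.5, 74.0 and 57.7 CPM in the Car controls, 115, 116 and 114 under WS and 20.8, 23.0 and 25.3 under HS, so that the 3 groups did not overlap. The log2 changes were 0.88 ± 0.10 (adjusted p = 3.3e-10) under WS and -1.44 ± 0.10 (adjusted p = 2.17e-15) under HS. In Cleo they were 0.46 ± 0.10 (adjusted p = 8.55e-05) and -1.12 ± 0.10 (adjusted p = 2.92e-12). Among the 4CL-like genes, whose substrates are mostly not hydroxycinnamates where known, LOC102606631 was the most abundant and read 29.3, 26.8 and 32.1 CPM in the Car controls and 106, 113 and 114 under WS (1.92 ± 0.10, adjusted p = 1.84e-19).

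**Figure D3:**
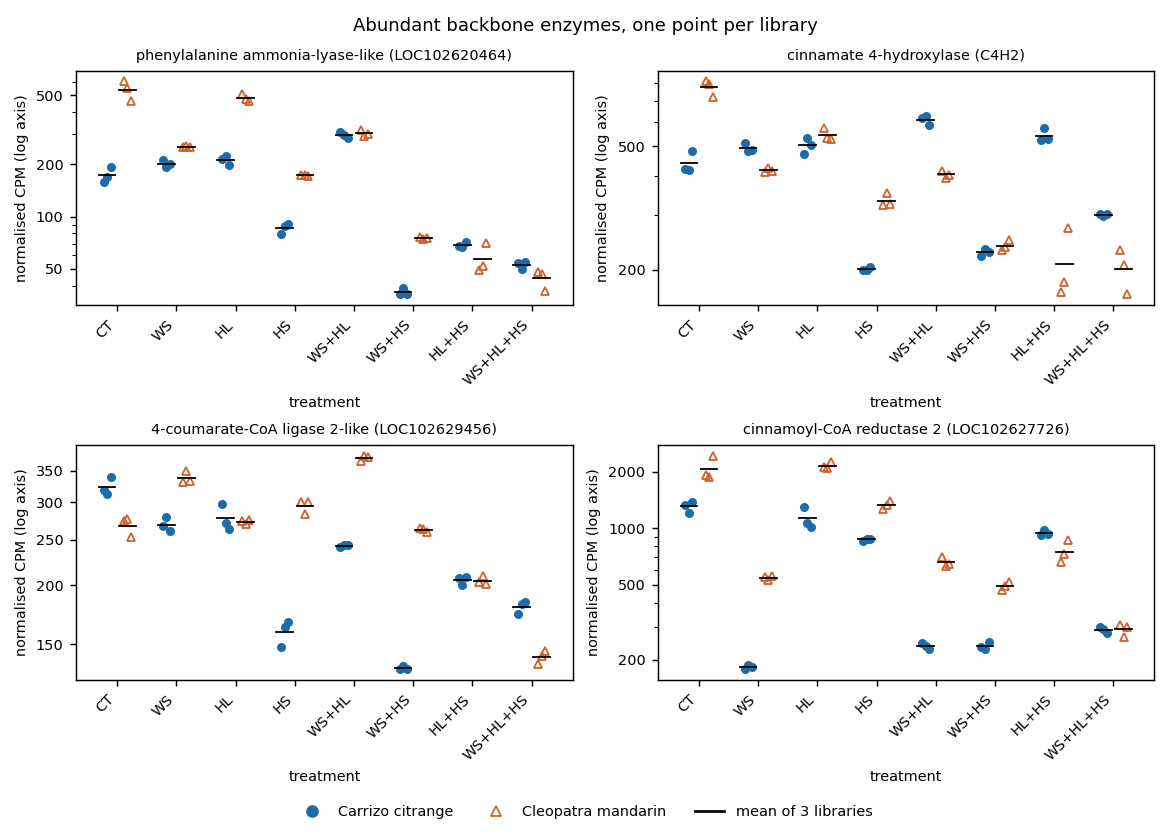
Points show the normalised CPM of each library (logarithmic axis) for PAL LOC102620464, C4H2, 4CL LOC102629456 and CCR2 LOC102627726 in 8 treatments, Car as filled circles and Cleo as open triangles, with a bar at the mean of 3 libraries. CCR2 dropped from between 1210 and 1380 CPM in the Car controls to between 179 and 188 under WS, and C4H2 in Car under HL+HS stood at or above 525 CPM while the Cleo libraries stood at or below 272.

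HCT joins hydroxycinnamoyl groups to shikimate, the form on which the next ring hydroxylation takes place. The 22 tested genes moved both ways, for example 6 up and 10 down in Car under WS (27.3% and 45.5%, beside 29.5% and 35.3% of all genes) and 8 up and 8 down in Cleo (36.4% each, beside 31.2% and 33.4%). The most abundant, LOC102624810, read 74.1, 70.0 and 84.8 CPM in the Car controls, 42.3, 43.4 and 40.3 under WS and 99.9, 126 and 114 under HS, again 3 separate ranges. It fell under WS (-0.86 ± 0.09, adjusted p = 1.51e-10) and rose under HS (0.57 ± 0.09, adjusted p = 1.51e-06) in Car. In Cleo the HS libraries, at 178, 185 and 171 CPM, lay below the controls at 257, 268 and 230 (-0.50 ± 0.09, adjusted p = 1.19e-05), and the difference of the HS responses was -1.07 ± 0.13 (adjusted p = 8.94e-09).

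LOC102614148 rose under WS in both genotypes, from 36.9, 37.1 and 33.5 to 60.6, 61.6 and 58.6 CPM in Car (0.75 ± 0.06, adjusted p = 1.49e-13) and from 45.6, 47.9 and 52.1 to 126, 122 and 123 CPM in Cleo (1.35 ± 0.06, adjusted p = 1.08e-21). Another family member, LOC102617991, was seen almost only in Car, at 3.54, 4.16 and 3.26 CPM under CT and at most 0.200 in any Cleo control. In Car it read 19.2, 21.5 and 22.1 CPM under HL (2.52 ± 0.27, adjusted p = 1.26e-08) and 50.5, 39.6 and 45.9 under HL+HS (3.63 ± 0.28, adjusted p = 7.29e-13). Its near-absence from Cleo libraries is a case in which read matching and level cannot be told apart.

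LOC102618363 was the HCT-like gene with the widest range. It had 0 counts in the 3 Car controls and 5 in the Cleo controls, all in the marked replicate 3. In Cleo it reached 40.3, 36.2 and 32.6 CPM under HL+HS (10.03 ± 0.69, adjusted p = 2.87e-15) and 44.5, 39.9 and 41.7 under WS+HL+HS, far above the 7.06, 4.48 and 3.54 CPM of WS+HL. In Car it read 1.10, 0.957 and 0.765 CPM under WS, at least 51.3-fold higher than a floor of 3 counts over the control group (adjusted p = 1.57e-06).

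CSE hydrolyses caffeoylshikimate to caffeate. The most abundant gene, LOC102622303, rose with heat: it read 116, 103 and 119 CPM in the Cleo controls and 244, 262 and 254 under HS (1.17 ± 0.07, adjusted p = 3.34e-17). In Car the HS libraries at 120, 106 and 99.1 CPM also lay above the controls at 85.3, 85.5 and 88.5 (0.33 ± 0.07, adjusted p = 0.000155), a smaller response by 0.84 ± 0.10 in log2 (adjusted p = 5.84e-09). Its Car libraries were highest under HL+HS, at 153, 157 and 143 CPM, 0.86 ± 0.10 above the sum of the single responses (adjusted p = 1.38e-08). The role as a whole had no common direction, with 6 of 16 genes up and 8 down in Car under WS (beside 29.5% and 35.3% of all genes) and 8 up and 5 down in Cleo under HL+HS (beside 35.5% and 31.5%).

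CCoAOMT methylates caffeoyl-CoA, the branch toward feruloyl-CoA. All 7 genes fell under WS in both genotypes, with a median log2 change of -0.81 in Car and -1.29 in Cleo, and all 7 fell in Cleo under WS+HS, beside 35.3%, 33.4% and 32% of all genes lower in these comparisons. The summed level went from 1570 to 897 TPM in Car and from 1940 to 915 TPM in Cleo under WS. LOC102619432, named after its values were seen, read 231, 201 and 216 CPM in the Cleo controls, 93.0, 87.8 and 84.5 under WS and 27.0, 27.9 and 19.3 under WS+HL+HS. The log2 changes were -1.29 ± 0.15 (adjusted p = 6.92e-10) and -3.13 ± 0.16 (adjusted p = 5.45e-20), without overlap with the controls.

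The most abundant gene of the role, LOC112495545, moved less under WS, from 123, 98.1 and 124 to 89.6, 79.0 and 88.6 CPM in Car (-0.42 ± 0.11, adjusted p = 0.00108). Another CCoAOMT gene rose in Cleo under light with heat. LOC102622674, also named after its values were seen, read 17.7, 15.9 and 25.7 CPM in the Cleo controls, 69.2, 82.5 and 77.7 under HL+HS (1.95 ± 0.15, adjusted p = 3.16e-15) and 54.8, 46.7 and 49.2 under WS+HL+HS. In Car it read 9.12, 7.97 and 11.5 CPM under CT and 7.99, 9.62 and 8.60 under HL+HS (-0.13 ± 0.15, adjusted p = 0.484), and the responses differed by 2.08 ± 0.21 (adjusted p = 4.46e-11).

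CCR reduces hydroxycinnamoyl-CoA esters to aldehydes, the first step particular to monolignols. The dominant gene, LOC102627726 (cinnamoyl-CoA reductase 2), lost most of its signal under WS. It read 1330, 1210 and 1380 CPM in the Car controls and 179, 188 and 184 under WS (-2.83 ± 0.09, adjusted p = 7.12e-27), and 1910, 1860 and 2420 in the Cleo controls and 548, 530 and 560 under WS (-1.92 ± 0.09, adjusted p = 6.37e-22). The fall under WS was smaller in Cleo by 0.91 ± 0.12 (adjusted p = 7.48e-08), and the groups were far apart in both genotypes.

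Heat alone lowered CCR2 less, to 859, 880 and 880 CPM in Car (-0.58 ± 0.09, adjusted p = 2.63e-07) and 1260, 1330 and 1400 in Cleo (-0.63 ± 0.09, adjusted p = 4.94e-08). Under HL the libraries overlapped the controls in both genotypes, at -0.21 ± 0.09 (adjusted p = 0.087) and 0.06 ± 0.09 (adjusted p = 0.663). Car under WS+HL+HS stood at 299, 290 and 279 CPM and Cleo at 308, 265 and 298, the same range from different controls.

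The 14 CCR genes moved both ways under WS. In Car 5 rose and 5 fell, beside 29.5% of all genes higher and 35.3% lower. In Cleo 5 rose and 7 fell, beside 31.2% and 33.4% of all genes. LOC102613331, an SNL6-like gene, fell in Cleo under HL (-0.83 ± 0.10, adjusted p = 5.89e-09) and fell with CCR2 under WS, by 0.69 ± 0.10 in log2 in Car (-0.69, adjusted p = 6.22e-08) and 2.0 ± 0.10 in Cleo (-2.0, adjusted p = 1.66e-20). Among those that rose, the SNL6-like gene LOC102629455 went from 27.7, 24.6 and 31.0 to 241, 240 and 269 CPM under WS in Car (3.17 ± 0.10, adjusted p = 4.99e-27) and from 34.4, 32.7 and 40.7 to 532, 485 and 543 in Cleo (3.86 ± 0.10, adjusted p = 9.72e-30). Under WS+HS it was much closer to its controls, at 45.5, 41.0 and 46.8 CPM in Car and 53.7, 48.7 and 53.4 in Cleo, departures from the sum of the single responses of -1.47 ± 0.14 (adjusted p = 2.08e-11) and -2.86 ± 0.14 (adjusted p = 6.68e-20).

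LOC102608002 (cinnamoyl-CoA reductase 1-like) rose under WS from 50.7, 42.4 and 58.1 to 136, 147 and 153 CPM in Car (1.53 ± 0.11, adjusted p = 1.31e-15) and from 33.7, 30.6 and 45.5 to 296, 268 and 292 in Cleo (2.97 ± 0.12, adjusted p = 2.03e-24). In Cleo its libraries were higher still under WS+HL+HS, at 368, 344 and 399 CPM (3.34 ± 0.12, adjusted p = 5.48e-26), while in Car it read 121, 115 and 117. Under HL+HS in Cleo it rose to 130, 119 and 116 CPM although it fell under HL and under HS alone. The departure of 2.72 ± 0.16 (adjusted p = 1.21e-17) from the sum of the single responses includes those falls.

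The remaining SNL6-like gene, LOC102620081, named after its values were seen, moved in opposite directions in the genotypes under WS. It rose from 58.1, 69.6 and 61.6 to 111, 119 and 111 CPM in Car (0.85 ± 0.09, adjusted p = 5.82e-11) and fell from 146, 153 and 107 to 85.7, 92.3 and 80.4 in Cleo (-0.65 ± 0.09, adjusted p = 2.44e-08). The difference was -1.50 ± 0.13 (adjusted p = 7.68e-13) and reached -2.28 ± 0.13 (adjusted p = 2.4e-18) under WS+HL+HS. Summed over the 14 CCR genes the level was 2070 TPM in Car under CT and 890 under WS+HS, and 2480 TPM in Cleo under CT and 1070 under WS+HS.

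CAD makes the monolignol alcohols. All 4 genes fell under HS in both genotypes, where 26.3% of all genes were lower in Car and 27.4% in Cleo. Under HL 3 fell in Car and 4 in Cleo, where 8.77% and 18% of all genes were lower. The gene described as a probable cinnamyl alcohol dehydrogenase 6 (LOC102617066), named after its values were seen, dropped under water stress from 46.6, 55.3 and 41.2 to 3.92, 3.93 and 3.69 CPM in Car (-3.63 ± 0.13, adjusted p = 4.24e-25) and from 168, 163 and 151 to 28.8, 31.8 and 30.5 in Cleo (-2.40 ± 0.12, adjusted p = 3.7e-21). Under WS+HL+HS it read 1.04, 2.09 and 1.56 CPM in Car (-4.93 ± 0.15, adjusted p = 6.12e-28).

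LOC102578067, described as a putative cinnamyl alcohol dehydrogenase, rose under WS, where LOC102617066 fell, although both fell under HS. It went from 13.9, 11.4 and 18.8 to 74.7, 78.9 and 82.0 CPM under WS in Cleo (2.42 ± 0.11, adjusted p = 9.09e-22), and from 34.6, 28.9 and 37.8 to 41.7, 45.4 and 41.0 in Car (0.34 ± 0.11, adjusted p = 0.00566). The response was larger in Cleo by 2.08 ± 0.15 (adjusted p = 2.13e-14). Under WS+HS in Cleo the libraries, at 19.8, 21.4 and 20.2 CPM, stood just above the controls (0.48 ± 0.11, adjusted p = 0.000245). Over the 7 stresses LOC102578067 rose in 2 and fell in 4 in Car and rose in 4 and fell in 2 in Cleo, while LOC102617066 fell in 6 in Car and in all 7 in Cleo.

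Laccases are copper oxidases of the cell wall, and their summed level set the genotypes apart. In Cleo the summed laccase level was 17.4 TPM under CT, 171 under WS, 486 under WS+HL and 876 under WS+HL+HS, but 17.5 under WS+HS. In Car it was 28.4 TPM under CT and 5.70 under WS+HL+HS. Of the 16 tested genes, 1 rose and 10 fell in Car under WS+HS and again under WS+HL+HS, where 31.9% and 32.5% of all genes were higher and 35% and 38.7% lower. In Cleo 6 rose and 3 fell under HL+HS (37.5% and 18.8%, beside 35.5% and 31.5% of all genes) and 6 rose and 5 fell under WS+HL+HS (37.5% and 31.2%, beside 37.5% and 35.1%).

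The laccase-7-like gene LOC102627565 set the Cleo sum under WS, WS+HL and WS+HL+HS. It read 0.328, 0.451 and 0.107 CPM in the Cleo controls, 218, 251 and 163 under WS, 727, 741 and 730 under WS+HL and 1060, 1110 and 959 under WS+HL+HS. Each of these groups lay far above the controls and apart from the others, with log2 changes of 9.43 ± 0.50 (adjusted p = 2.97e-18), 11.23 ± 0.51 (adjusted p = 4.21e-20) and 11.74 ± 0.52 (adjusted p = 1.18e-20). Under WS+HS it read only 1.72, 1.05 and 2.04 CPM, a departure of -11.48 ± 0.65 (adjusted p = 2.78e-16) from the sum of the WS and HS responses, and under HL+HS it read 228, 166 and 200.

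In Car the same gene never exceeded a group mean of 7.48 CPM. It read 0.111, 0.357 and 0.294 CPM under CT, 7.65, 6.47 and 8.34 under WS (4.88 ± 0.56, adjusted p = 2.35e-09) and 1.81, 2.88 and 2.74 under WS+HL+HS (3.27 ± 0.66, adjusted p = 4.02e-05). In the unmarked libraries alone the last of these was 2.78 and no longer called (adjusted p = 0.0556). The response to WS+HL+HS was larger in Cleo by 8.46 ± 1.42 (adjusted p = 4.87e-06). A neighbouring laccase-7-like copy, LOC102608728, had only 5 counts in the Cleo controls (0.0313 ± 0.0542 CPM, mean and SD) and rose in all 7 Cleo stresses. Its fold changes in Cleo therefore start from a level near 0. It read 2.71, 1.94 and 1.66 CPM under WS in Cleo (5.92 ± 0.59, adjusted p = 1.33e-10). It reached 72.8, 82.2 and 91.5 under HL+HS (11.21 ± 0.46, adjusted p = 1.33e-20) and 127, 128 and 109 under WS+HL+HS. The copies lie within 5 gene positions of each other in the sweet orange assembly DVS_A1.0 and may share reads.

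A further pair of laccases appeared in Cleo when light met heat. LOC102616340 (laccase-13, named after its values were seen) read 0.200, 0.394 and 0.214 CPM under CT, 56.5, 66.1 and 69.3 under HL+HS (7.87 ± 0.50, adjusted p = 1.92e-16) and 69.0, 72.6 and 65.7 under WS+HL+HS, and stayed at or below 0.704 in every other group of either genotype. LOC102609228 (laccase-12-like) read 22.2, 27.6 and 26.8 CPM in Cleo under HL+HS and 76.8, 68.5 and 57.4 under WS+HL+HS, from 0.182, 0.113 and 0 under CT (7.92 ± 0.64, adjusted p = 7.84e-13, and 9.33 ± 0.64, adjusted p = 1.12e-14).

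In Car LOC102609228 fell under HS (-1.15 ± 0.44, adjusted p = 0.0254) and in the 4 treatments with water stress. It read 1.94, 5.51 and 3.21 CPM under CT and had 0 counts in all 3 libraries of WS+HS and of WS+HL+HS, at least 215-fold and 190-fold lower against a floor of 3 counts over the group. Under WS and WS+HL it fell by 5.34 ± 0.69 and by 4.46 ± 0.63 in log2 (changes of -5.34, adjusted p = 3.35e-08, and -4.46, adjusted p = 2.11e-07). Under HL+HS, where it rose in Cleo, its change in Car was -0.43 ± 0.43 (adjusted p = 0.403). The xylem markers were also lowest in Car under WS+HL+HS and WS+HS (75.9 to 79.1 CPM under WS+HS); their part in the fall was not tested.

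Dirigent genes more often rose than fell in Cleo under light with heat, but rises were not confined to those treatments. Over the 7 Cleo stresses the dirigent 22-like genes LOC102616854 and LOC102626914 rose in all 7 and LOC102616556 in 6. The dirigent protein 22 genes LOC102622229 and LOC102621638 fell in 7 and in 5. Of the 17 tested, 10 rose and 2 fell in Cleo under HL+HS and 12 rose and 1 fell under WS+HL+HS. The medians were 1.02 and 1.19, beside 35.5% and 37.5% of all genes higher and 31.5% and 35.1% lower. In Car under WS+HL+HS 7 rose and 8 fell with a median of -0.42, beside 32.5% of all genes higher and 38.7% lower. The summed level went from 127 TPM in Cleo under CT to 414 under WS+HL+HS. In the same libraries the epidermis markers summed to 153 to 249 CPM under HL+HS and 142 to 214 under WS+HL+HS, against 500 to 984 under CT, and 12 of the 15 tested fell and 1 rose in each. Of the 5 guard cell markers 3 rose and none fell in each, with sums of 18.7 to 21.7 and 33.5 to 38.3 CPM against 5.05 to 14.2 under CT, and the part of these shifts was not tested. Dirigent protein 11 (LOC102612447), the most abundant, passed the test upward in each of the 14 stress comparisons: its controls read 65.4, 66.8 and 79.2 CPM in Cleo, and the WS+HL+HS libraries 407, 417 and 426 (2.56 ± 0.11, adjusted p = 1.16e-22).

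In Car it went from 68.9, 62.0 and 63.9 CPM to 152, 152 and 145 under WS+HL+HS (1.20 ± 0.11, adjusted p = 8.62e-13), a smaller rise by 1.36 ± 0.15 in log2 (adjusted p = 6.46e-10). The dirigent 22-like gene LOC102626914 was all but absent from controls, at 0, 0.0563 and 0.0642 CPM in Cleo, and read 29.3, 30.8 and 38.0 under HL+HS (9.63 ± 0.41, adjusted p = 2.74e-22) and 70.9, 75.7 and 62.9 under WS+HL+HS (10.73 ± 0.41, adjusted p = 4.57e-24). In Car its highest library stood at 0.829 CPM. Dirigent protein 22 (LOC102622229) fell under WS in both genotypes, from 26.2, 22.6 and 27.5 to 5.75, 5.88 and 6.46 CPM in Car (-2.08 ± 0.15, adjusted p = 1.13e-15) and by 1.32 ± 0.14 in log2 in Cleo (-1.32, adjusted p = 1.21e-10).

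**Figure D4:**
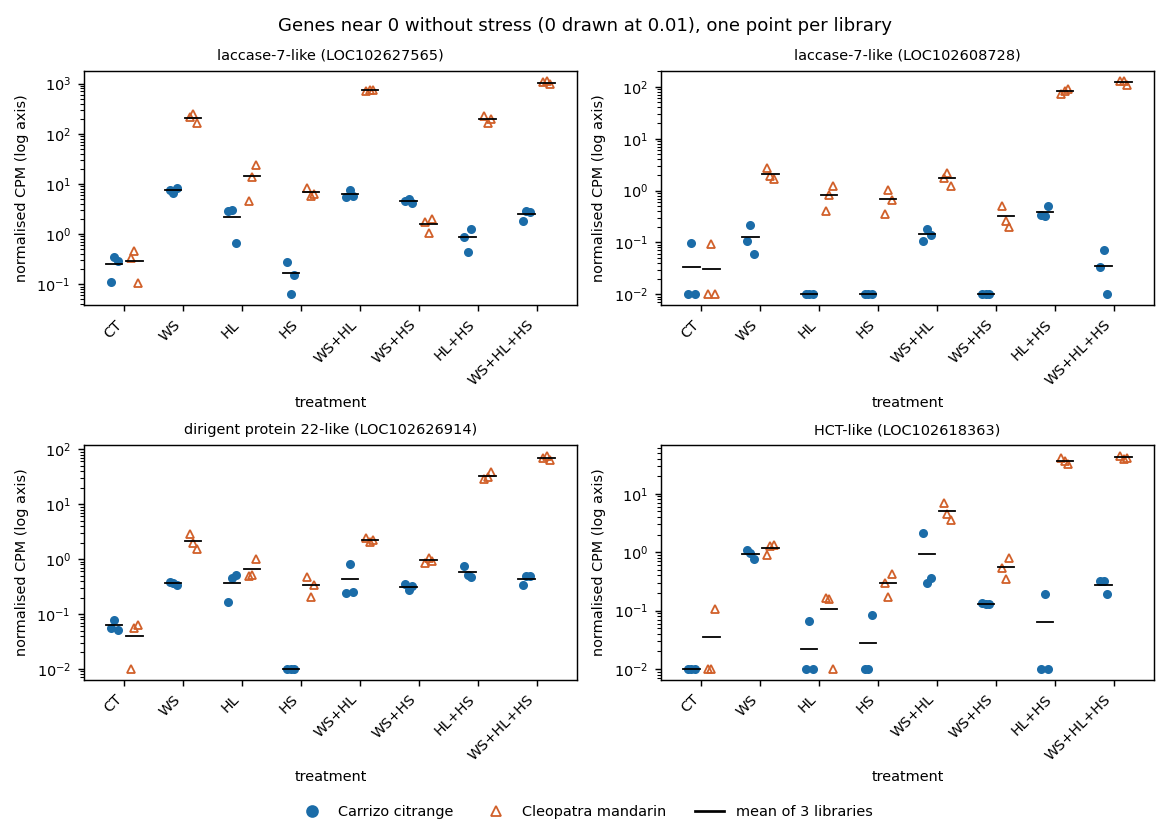
Points show the normalised CPM of each library (logarithmic axis, 0 drawn at 0.01) for laccase-7-like LOC102627565 and LOC102608728, dirigent 22-like LOC102626914 and HCT-like LOC102618363 in 8 treatments of Car (filled circles) and Cleo (open triangles), with a bar at the mean. All 4 were highest in Cleo under WS+HL+HS, where LOC102627565 stood between 959 and 1110 CPM, and LOC102627565 dropped to between 1.05 and 2.04 CPM in Cleo under WS+HS.

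The 2 remaining members were low. LOC102615417, described as an anthocyanin malonyltransferase, read 2.05, 3.61 and 2.47 CPM in the Car controls and 12.6, 12.5 and 13.3 under HL+HS (2.24 ± 0.50, adjusted p = 0.000216), with at most 0.405 CPM in any Cleo library. LOC102622750, a fatty alcohol caffeoyl-CoA acyltransferase, had a mean of at most 1.73 CPM in any group.

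The control plants themselves differed. Under CT, 51 of the 142 genes were higher in Cleo and 39 lower, beside 67.4% of all genes called, 33% higher and 34.4% lower. In the unmarked control libraries alone these counts were 51 and 42. Of the 16 tested laccases none was higher and 8 were lower. Of the 20 tested xylem markers 4 were higher and 12 lower in Cleo (median log2 difference -1.48), with sums of 134 to 194 CPM in Cleo and 291 to 448 in Car; their part in the laccase difference was not tested. A CCR1-like gene (LOC112498185) was higher in Cleo by 4.40 ± 0.25 in log2 (adjusted p = 1.53e-18), and a CSE-like gene (LOC102620320) was lower, at -3.86 ± 0.18 (adjusted p = 1.92e-21).

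Responses to the same stress were then compared between genotypes, as the response in Cleo minus that in Car. Under WS this difference was higher for 37 genes and lower for 32, beside 36.1% of all genes called (17.8% higher, 18.3% lower). Under HL it was higher for 10 and lower for 10 (15.4% of all genes called, 7.77% higher and 7.66% lower), a total of 20, a count that was 32 without HL-Car replicate 1 and 11 in a fit of the HL and CT libraries only. Under HS it was higher for 22 and lower for 41 (43.7% of all genes called, 20.2% higher and 23.5% lower). It was called for 76 genes under WS+HL (40% of all genes), 66 under WS+HS (41.7%) and 76 under HL+HS (50.1%). Under WS+HL+HS 56 were higher and 31 lower in Cleo, with a median of 0.56, beside 56.4% of all genes called, 29.1% higher and 27.3% lower.

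The response to a pair of stresses was also compared with the sum of the single responses. The share of members that departed from the sum in Car was 21.1% under WS+HL (19 above and 11 below), beside 18.1% of all genes, 33.1% under WS+HS (21 and 26), beside 37.1%, and 31.7% under HL+HS (28 and 17), beside 27.8%. In Cleo it was 23.2% under WS+HL (25 and 8), beside 25.2% of all genes, 46.5% under WS+HS (27 and 39), beside 37.3%, and 51.4% under HL+HS (36 and 37), beside 50%. By direction, 17.6% of members lay above and 5.63% below the sum in Cleo under WS+HL, beside 12.3% and 12.9% of all genes, and 19.0% and 27.5% under WS+HS, beside 19.7% and 17.6%. In Car under HL+HS more members lay above than below, while of all genes 12% lay above and 15.8% below. In Cleo the total departing was 33, 66 and 73, and in the unmarked libraries alone 42, 70 and 68; in Car a departure that uses HS has no unmarked HS library, and when the model held the mark the totals were 50 under WS+HS and 51 under HL+HS, in place of 47 and 45.

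Neighbouring steps were read from lists drawn up by gene description, each given here for WS and for WS+HL+HS, where 29.5% and 32.5% of all genes were higher and 35.3% and 38.7% lower in Car, and 31.2% and 37.5% higher and 33.4% and 35.1% lower in Cleo. Of 24 genes of the shikimate, chorismate and prephenate steps that supply phenylalanine, not all particular to it, 6 rose and 12 fell under WS in Car. Under WS+HL+HS 6 rose and 13 fell in Car. In Cleo the counts were 5 and 14, then 6 and 14. Of 41 tested class III peroxidases, the other oxidases of monolignols, 8 rose and 20 fell, then 4 and 22, in Car, and 12 and 14, then 17 and 11, in Cleo. Elsewhere in Cleo the peroxidases went both ways, with 20 up and 10 down under HL+HS but 3 up and 10 down under HS and 5 up and 14 down under WS+HS, beside 35.5% and 31.5%, 27.1% and 27.4%, and 32.2% and 32% of all genes. Of 10 tested genes of the coumarin branch, 1 rose and 3 fell, then 1 and 7, in Car, and 6 and 1, then 3 and 5, in Cleo. Of 14 tested genes with pinoresinol, isoflavone reductase or phenylcoumaran in the description, 1 rose and 5 fell, then 2 and 8, in Car. In Cleo 4 of them rose and 3 fell, then 5 and 2. Of the 4 P450 ring hydroxylases 2 rose and 1 fell, then none and 3, in Car, and 3 and none, then 1 and 2, in Cleo. The P450 84A1 gene (LOC102629219), named after its values were seen and of the family of ferulate 5-hydroxylase, rose under WS by 2.87 ± 0.08 in log2 in Cleo (adjusted p = 3.24e-30) and 1.10 ± 0.07 in Car (adjusted p = 2.71e-17).

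Position was the one property outside expression that could be read for the set. Of the 176 genes, 137 were found in a RefSeq gene table of sweet orange (DVS_A1.0), used here for names and neighbours only, and 64 of these lay within 5 gene positions of another member, in 24 clusters of at most 5. The clusters held the laccase-7-like copies and the main PAL gene LOC102620464 with LOC102620173. Members of a cluster can be near-identical copies, so their counts are not independent of each other.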

How the data were processed

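Gene counts and TPM values were used as deposited by the authors, and the FPKM columns of the same table were not used. Per the labels' protocols, RNA was extracted with a Maxwell 16 LEV plant RNA kit and libraries were made with a TruSeq Stranded mRNA kit. Per the submitters' processing notes, FastQC 0.11.7, HISAT2 2.1.0 and StringTie 2.1.3b were used. The deposited table is named for the sweet orange assembly Csi_valencia_1.0; the sources used here do not give the treatment of reads with several matches or the strand setting of the counting. Counts cover gene rows only.

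From the deposited counts, 1 model with 16 group means was fitted to 48 libraries with edgeR 4.0.16 in R 4.3.3 (filterByExpr, TMM, trended dispersion, robust quasi-likelihood F test, 32 residual degrees of freedom), with Benjamini-Hochberg adjustment over 23721 genes and calls below 0.05. Standard errors were derived from the test statistic and left out above 10 log2 units. CPM values are TMM-normalised; TPM served to compare genes. Groups with 0 counts were set to a floor of 3 counts over the group, which covers counting error only. The procedure was tested on simulated data. The members and lists were chosen with earlier results of these data known. Genes were named by rule: the 2 most abundant per role, and the called genes of mean log2 CPM of at least 1 with the largest changes (3 each way per stress and under CT, 1 each way per response difference and departure). Per stress, the stressed libraries of such a gene also had to lie apart from the controls. For genes named by that rule the separation was fixed by the selection. For contrasts of responses, genes needed more than 3 counts in every group, a condition added after the data were seen. Genes named otherwise are said to be so. One enzyme role of the set counts in the totals but is not reported here on its own.

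Alternatives were DESeq2 1.42.0, its size factors, no filter, a replicate block, the compared libraries only, the column mark as a term, unmarked libraries alone, and each library left out, which kept the genes and the dispersion trend. For HS in Car, marked libraries alone were added after the data were seen. The strand and the near-identical copies could not be checked. Promoter and protein sequences were not used here.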

Additional observations from a re-analysis of the deposited data

Results flagged for a closer look

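The following responses to a stress differed between Cleo and Car in a direct test (edgeR quasi-likelihood, Benjamini-Hochberg), and each is the largest called difference in its direction for that stress among genes of mean log2 CPM of at least 1 with more than 3 counts in every group compared. Values are the log2 response in Cleo minus that in Car.

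Under WS the HCT-like gene LOC112498876 differed by -2.51 ± 0.32 (adjusted p = 3.6e-08), with Cleo libraries going from 6.33, 5.63 and 6.21 to 0.522, 0.280 and 0.305 CPM and Car libraries from 2.12, 1.51 and 2.05 to 0.550, 0.656 and 0.785.

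Under HL the HCT-like gene LOC102617991 differed by -3.74 ± 1.06 (adjusted p = 0.0135), and without CT-Cleo replicate 1 by -2.23 (adjusted p = 0.439). In the unmarked libraries alone the adjusted p was 0.067. The dirigent gene LOC102616556 differed by 1.10 ± 0.35 under HL (adjusted p = 0.0286), and without CT-Cleo replicate 2 by 0.84 (adjusted p = 0.109).

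The laccase-7-like gene LOC102627565 differed by 5.08 ± 1.37 under HS (adjusted p = 0.00263) and by 6.61 ± 1.32 under WS+HL (adjusted p = 0.000103), the latter at 6.68 with an adjusted p of 0.0592 in the unmarked libraries alone.

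Under WS+HL the PAL gene LOC102607860 differed by -1.82 ± 0.19 (adjusted p = 3.62e-10). Under WS+HS the CSE-like gene LOC102630451 differed by -3.02 ± 0.40 (adjusted p = 7.37e-08), with Car going from 3.21, 7.79 and 3.87 to 24.1, 27.1 and 30.8 CPM and Cleo from 3.79, 3.70 and 0.963 to 1.96, 2.02 and 1.83. Under HL+HS the laccase-12-like gene LOC102609228 differed by 8.35 ± 0.79 (adjusted p = 1.16e-10). Under WS+HL+HS the CSE-like gene LOC102616060 differed by -2.29 ± 0.21 (adjusted p = 5.82e-12). The laccase-7-like gene LOC102608728 differed by 11.53 ± 2.41 (adjusted p = 0.000122), and without CT-Car replicate 2, the only Car control with counts, by 7.77 with no call (adjusted p = 1.0).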

How the results depend on the processing

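Counts of called pathway genes stayed within 1.5 times in all 28 comparisons under the DESeq2 test, DESeq2 scaling, an unfiltered table and a term for the column mark, and in the 24 that could be run on unmarked libraries alone. Fitted on the compared libraries only, HL in Car gave 11 calls in place of 31, and the HL response difference 11 in place of 20; the cause was not tested. Same-numbered replicates did not deviate together (correlations -0.16 to 0.148, no comparison with every pair above 0.1), so numbers were not taken to pair samples; the replicate block gave 97 calls for WS in Car and 98 for WS in Cleo, moved no count by over 1.5 times, and lost 1 named call, LOC102630515 (-1.68, adjusted p = 0.0514).

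Leaving out 1 library gave these ranges of calls. In Car they were 92 to 100 for WS, 25 to 41 for HL, 86 to 90 for HS, 95 to 100 for WS+HL, 98 to 102 for WS+HS, 83 to 90 for HL+HS and 102 to 106 for WS+HL+HS. In Cleo they were 94 to 99, 30 to 40, 77 to 81, 92 to 98, 82 to 92, 90 to 99 and 98 to 102 in the same order. The genotype difference under CT ranged from 86 to 93 and the HL response difference from 18 to 32. Of the values of named genes with 1 library left out, 642 kept their direction and call, 30 kept their direction and lost the call, and none reversed. In the unmarked libraries alone 69 kept the call and 8 lost it (of LOC102627565, LOC102617991, LOC102618363 and LOC102621638). In the fit of the compared libraries 76 kept it and 5 lost it (LOC102621638, LOC102617991, LOC102616556, LOC102608728 and LOC102630515), and without the filter 84 and 1 (LOC102630515).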
